A study of Schizosaccharomyces pombe with 24 samples.

Results

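The 60 non-coding RNAs of fission yeast described here were those whose small RNA counts gained least, or fell most, over a day without nitrogen. They were chosen by their own counts. An SPNCRNA id was eligible with 200 or more counts over 24 libraries, and its level was log2(CPM + 5), where CPM is the count over all gene counts of the library, scaled to a common total. Its score was the difference between 24 h and 0 h in whichever of wt, clr4D and dcr1D was lowest, and the 60 lowest scores of 118 eligible ids were taken. The files hold 6878 features, 1538 of them SPNCRNA ids, of which 126 reached 200 counts. Of these, 8 were among 10 ids that the rule leaves out (SPNCRNA.231, SPNCRNA.232, SPNCRNA.359, SPNCRNA.724, SPNCRNA.770, SPNCRNA.857, SPNCRNA.925, SPNCRNA.949, SPNCRNA.1005 and SPNCRNA.1202). Values at 0 h and 24 h in these strains therefore describe the choice and support nothing.

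Small RNA was sequenced from Schizosaccharomyces pombe cultures in minimal medium (EMM) with supplements at 32C, washed and moved to the same medium without nitrogen. The wild type was 975 h+, a single mating type (P), and each deletion strain was 975 h+ with ago1, clr4 or dcr1 replaced by the NatMX6 marker. Each of the 4 strains gave a single library per time, at 0, 1, 2, 4, 10 and 24 h, with no repeats. The 0 h libraries were the controls of the starvation course.

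In fission yeast, Dicer (Dcr1) cuts double-stranded RNA into small RNAs, Argonaute (Ago1) carries them, and the histone H3 lysine 9 methyltransferase Clr4 acts at the sites they mark, chiefly at centromere repeats. Long non-coding RNAs are transcribed throughout the genome, many of them opposite protein-coding genes, and much of this RNA is removed by the exosome. A size-selected small RNA library also holds short fragments of abundant RNAs, so a count in a non-coding gene is not by itself a Dicer product. Nitrogen-starved cells of a single mating type stop dividing and become quiescent.

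Gene counts per library ran from 117245 to 2121235, which were 1.27% to 25.2% of the reads counted, because 67.3% to 97.4% of reads had been set aside for low mapping quality. The members are thinly covered: their median total over the 24 libraries was 282 counts, 43 had fewer than 400, and the median member had 4.0 to 34.5 counts in a library. In libraries labelled ago1D, ago1 had 0 to 8 counts against 11 to 35 in wt. By contrast clr4 had 25 to 85 counts in libraries labelled clr4D against 9 to 31 in wt, and dcr1 had 23 to 79 in those labelled dcr1D against 16 to 37. The labels clr4D and dcr1D are used below as given, without a check from these genes. Profiles over 4131 features were compared with the mean of the others among wt, clr4D and dcr1D at each time. The labelled time was the closest for 18 of 18 libraries of wt, clr4D and dcr1D and for 3 of 6 of ago1D. The ago1D library labelled 0 h was closest to 1 h, that labelled 1 h to 2 h, and that labelled 2 h to 0 h (r = 0.84, against -0.41 with its own time). Strain and time tests were made on libraries at 1 to 10 h, because the rule used the 0 h and 24 h libraries. That window keeps the ago1D libraries labelled 1 h and 2 h. The strain tests were therefore also made without them, and the time tests without and with ago1D.

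The members mostly did not decline. Only 19 of the 60 had a score below 0, and 41 were lower at 24 h than at 0 h in none of wt, clr4D and dcr1D. Of the rest, 15 were lower in 1 of these strains, 2 in 2 and 2 in all 3, namely SPNCRNA.504 and SPNCRNA.1626. Some of these falls are 1 count against 0, as for SPNCRNA.373 in clr4D and SPNCRNA.29 in wt. In wt 12 members were lower at 24 h, where 20.8% of the 4131 features with 200 or more counts were. In ago1D, which the score did not use, 9 were lower (36.3% of features), in clr4D 7 (16.1%) and in dcr1D 6 (15.1%). All ago1D differences from 0 h, here and below, start from the library labelled 0 h, whose profile was closest to 1 h. The median difference of the members was 0.48 in wt, 1.32 in ago1D, 1.29 in clr4D and 1.50 in dcr1D on the log2(CPM + 5) scale. Over all 4131 features it was 0.78, 0.33, 1.13 and 1.02, and over the 58 other eligible non-coding RNAs 2.44, 2.32, 3.42 and 2.81. A scale taken from library totals sets the sign here. With library sizes scaled by TMM, which centres the bulk of the features, the medians of the same 60 members were -0.24 in wt, 0.77 in ago1D, 0.11 in clr4D and 0.44 in dcr1D. On that scale 8 members were lower in all 3 strains of the rule, 52 in at least 1, and 37 in wt. Relative to most features, then, the 60 were about level or slightly lower in wt and level or higher in the deletion strains. In bulk RNA, fewer cells of a type and less RNA per cell cannot be told apart.

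**Figure D1:**
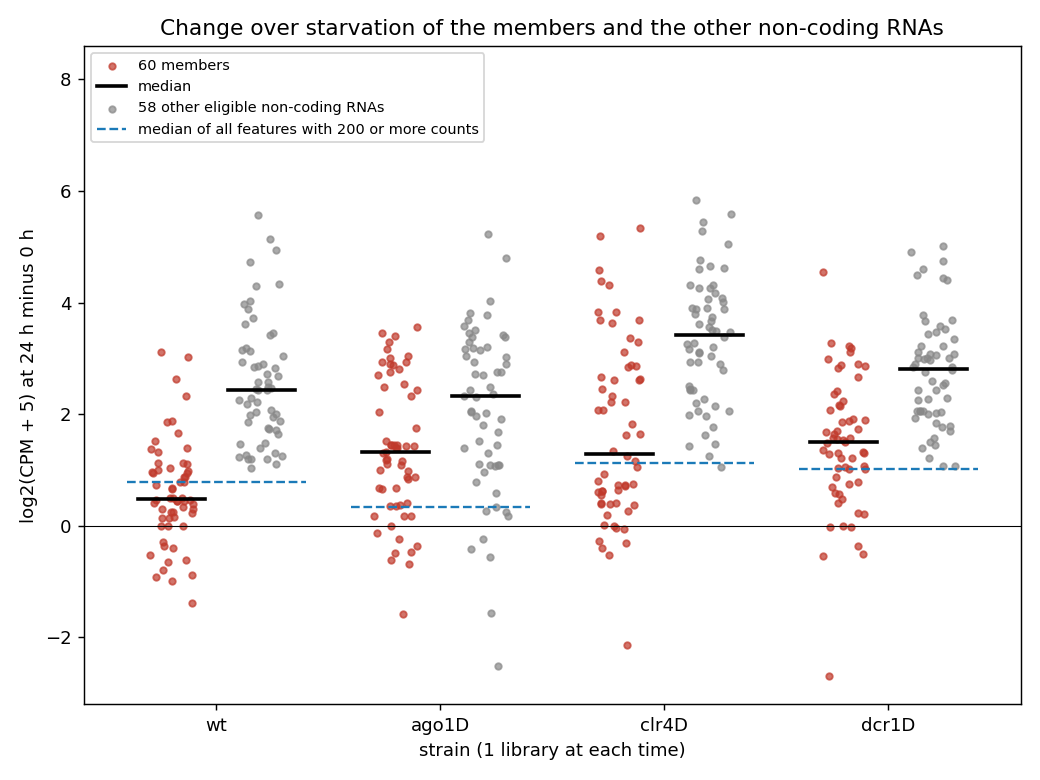
Difference in log2(CPM + 5) between 24 h and 0 h (vertical axis) for each member and each other eligible non-coding RNA, in the 4 strains. Each point is 1 RNA, black bars are medians and blue dashes the median of all features with 200 or more counts. The wt median of the members is 0.48, below that of all features, while members reach 5.34 in clr4D.

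The lowest change lay in wt for 34 members, in clr4D for 14 and in dcr1D for 12. The 34 had a median difference between 24 h and 0 h of 0.40 in wt, 1.63 in ago1D, 2.62 in clr4D and 1.88 in dcr1D. That wt is lowest here is set by the grouping. Single members differ from these medians: SPNCRNA.1467 was at -1.38 in wt, SPNCRNA.373 at -0.40 in clr4D, and meu3 at 0.0 in both wt and clr4D. The last 2 are floor values, with 1 count and then 0 for SPNCRNA.373 and 0 counts at both times for meu3. The 12 lowest in dcr1D had medians of 1.11 in wt, 0.38 in ago1D, 0.57 in clr4D and 0.22 in dcr1D, and the 14 lowest in clr4D had 1.06, 0.93, 0.47 and 1.40.

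Times between the ends are given relative to 0 h, which entered the rule, so that a level below 0 h soon after it is partly built in. In wt the median member stood at -0.62 at 1 h relative to 0 h, -0.18 at 2 h, -0.19 at 4 h, -0.16 at 10 h and 0.48 at 24 h. The corresponding medians in clr4D were -0.40, 0.12, -0.05, 0.45 and 1.29, and in dcr1D -0.12, 0.02, 0.29, 0.55 and 1.50. Those of the libraries labelled ago1D were 0.36, 0.09, 0.60, 0.79 and 1.32. At 1 h the median of all features was -0.15 in wt, 0.17 in ago1D, 0.18 in clr4D and 0.29 in dcr1D. The mean over wt, clr4D and dcr1D was lowest at 1 h for 30 members and highest at 24 h for 46, at 10 h for 11, at 0 h for 2 and at 2 h for 1.

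**Figure D2:**
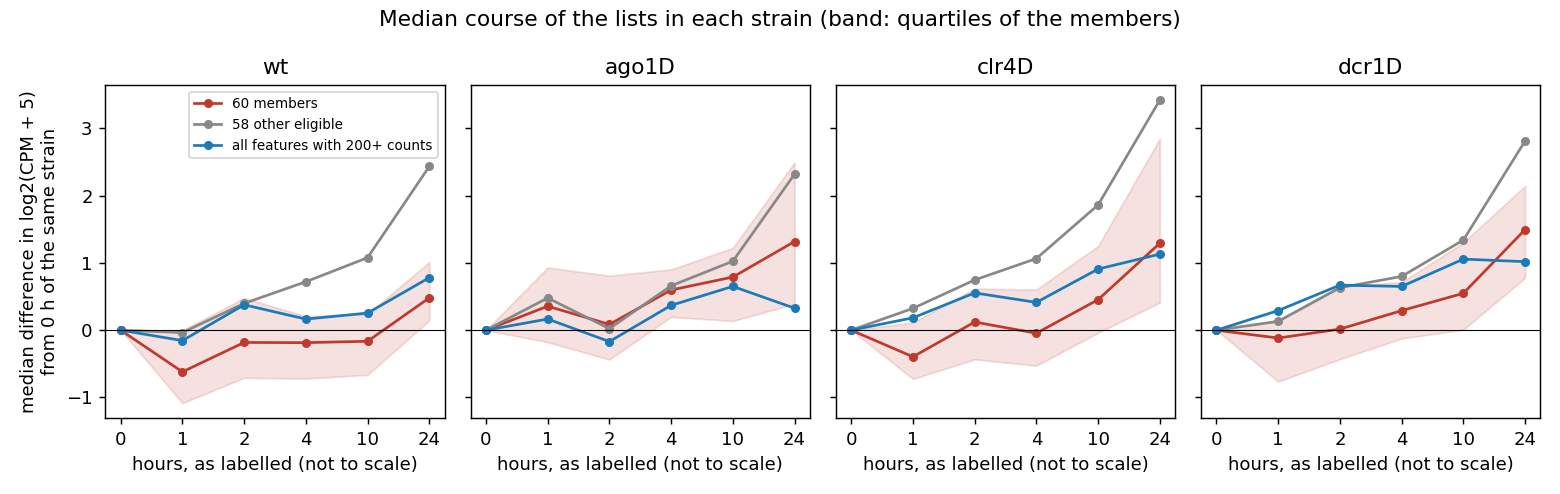
Median difference in log2(CPM + 5) from 0 h of the same strain against labelled time, for the members, the 58 other eligible RNAs and all 4131 features. Each panel is 1 strain and the band spans the quartiles of the members. In wt the members' median lies under 0 from 1 h to 10 h, at -0.62 to -0.16.

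**Figure D3:**
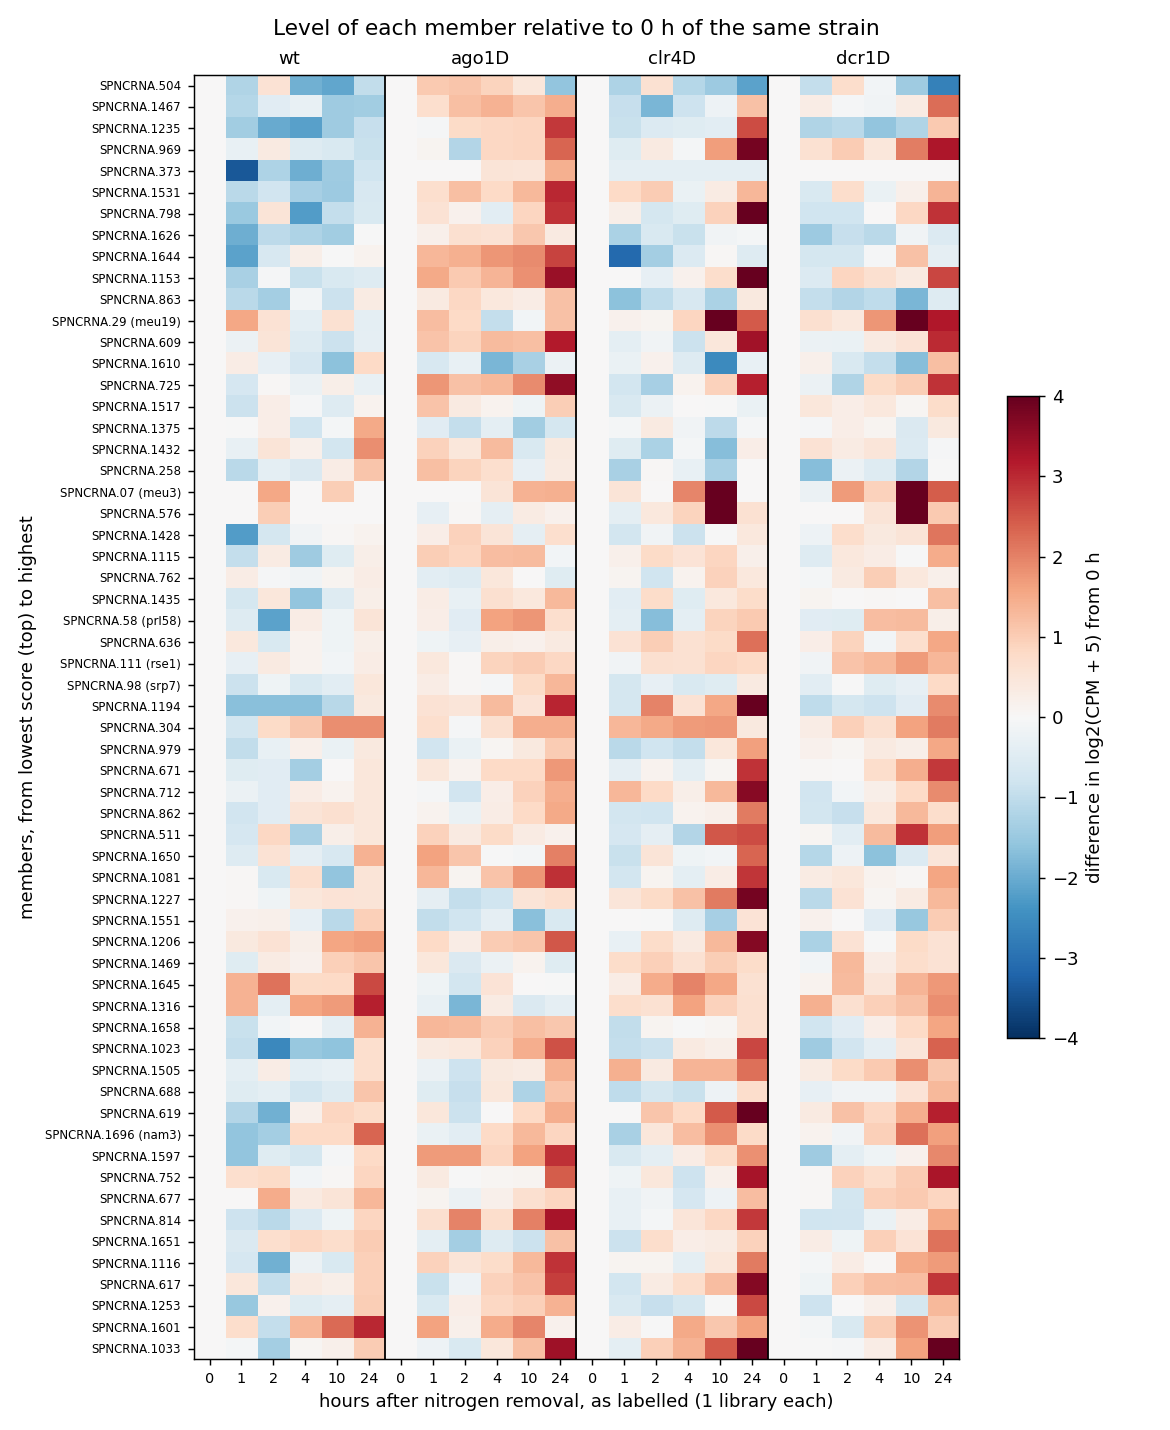
Every member (rows, by score) in every library (columns, by strain and labelled time), coloured by the difference in log2(CPM + 5) from 0 h of the same strain. The first row, SPNCRNA.504, is blue at 24 h in each strain, and the dark cells at 10 h in clr4D and dcr1D are meu19, meu3 and SPNCRNA.576.

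By the annotation, 58 of the 60 were matched, and SPNCRNA.504 and SPNCRNA.1531 were not. Exons of 34 members lay opposite a protein-coding gene, of 8 over genes on both strands, of 3 over a gene on the same strand and of 13 over none. Any overlap of exons counted, even one of 0.7% of the length of SPNCRNA.111 or 2.3% of SPNCRNA.671. Among the other eligible RNAs the numbers were 35, 4, 1 and 16, with 2 not matched. The annotation describes 14 members and 5 of the others as a possible alternative UTR of a neighbouring gene. It gives 6 members a name: srp7, meu19, meu3, prl58, rse1 and nam3. The 8 members over genes on both strands had a median difference between 24 h and 0 h of -0.07 in wt against 2.71 in ago1D, 2.89 in clr4D and 2.29 in dcr1D. The 34 opposite a gene had 0.75, 1.35, 1.73 and 1.52 in the same order of strains, and the 13 over none 0.45, 1.19, 0.55 and 0.79. The 3 over a gene on the same strand had 0.46, 0.17, 0.27 and 1.49. The score used these values, except those of ago1D.

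A structural RNA dominates the counts. SPNCRNA.98 is srp7, the 7SL RNA on which the signal recognition particle is built, which guides secretory proteins to the endoplasmic reticulum. It held 470401 of the members' 498340 counts, out of 11232626 gene counts in all. In wt its level was 55730 CPM at 0 h, 30735 at 1 h, 49257 at 2 h, 36612 at 4 h, 41294 at 10 h and 76339 at 24 h. In ago1D it lay between 39309 and 102205 CPM, in clr4D between 32942 and 69378 and in dcr1D between 24821 and 60638. The strains overlapped and each had its highest value at 24 h. None of the tests on 1 to 10 h libraries passed for srp7 (dcr1D against wt -0.49 on the log2 scale, SE 0.30, adjusted p = 0.436 by edgeR).

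SPNCRNA.504 is the one member whose level was lower at 24 h than at the labelled 0 h in all 4 strains. In wt it stood at 714 CPM at 0 h, 305 at 1 h, 1072 at 2 h, 184 at 4 h, 165 at 10 h and 355 at 24 h. In clr4D the same times gave 386, 160, 591, 172, 138 and 84.0 CPM, and in dcr1D 338, 171, 558, 311, 122 and 48.1 CPM. The libraries labelled ago1D gave 164, 345, 359, 311, 224 and 51.2 CPM. In wt, clr4D and dcr1D it was thus low at 1 h, highest at 2 h and below its 0 h level from 4 h on. At 24 h it was 2.01-fold lower than at 0 h in wt (95% exact interval for counting error 1.56 to 2.64), 4.60-fold in clr4D (2.81 to 8.02) and 7.03-fold in dcr1D (3.68 to 15.4). In ago1D it was 3.20-fold lower (1.40 to 9.03), on 6 counts against 70. That ratio starts from the library labelled 0 h, whose profile was closest to 1 h. From 4 h to 10 h, times the score did not use, SPNCRNA.504 fell by 1.01 on the log2 scale (SE 0.26, adjusted p = 0.0296 by edgeR, lower in 3 of 3 strains by CPM). That call was lost without clr4D (adjusted p = 0.421) or dcr1D (0.463), with ago1D added (0.128), with the 0 h and 24 h libraries added (0.0859) and under scaling by library totals (0.110). Its level did not pass between strains, with -0.53 in clr4D (adjusted p = 0.829) and -0.40 in dcr1D (0.463) against wt.

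**Figure D4:**
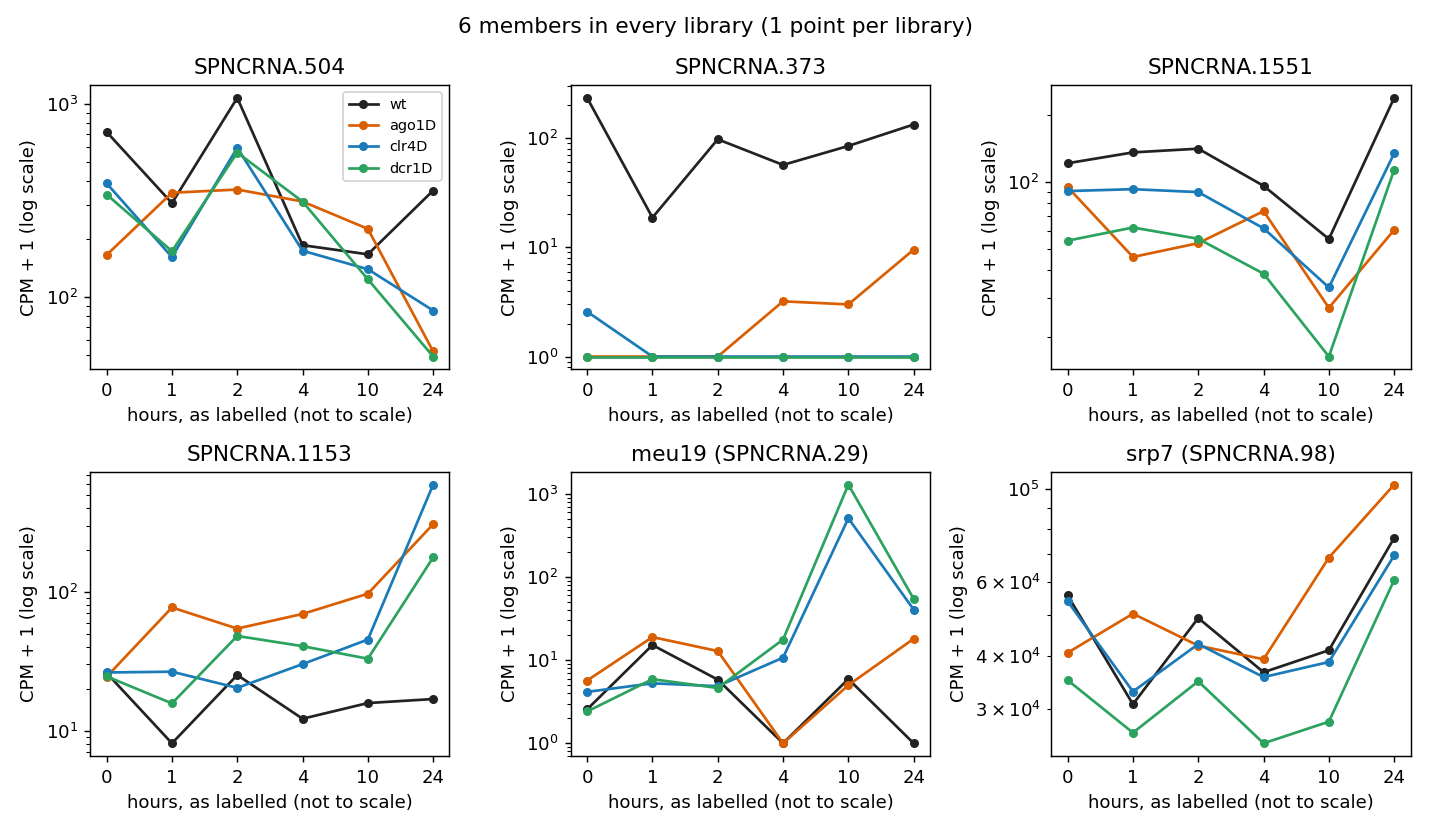
CPM + 1 on a log axis against labelled time for 6 members, 1 point per library and 1 line per strain. SPNCRNA.504 ends below its labelled 0 h level in each strain, SPNCRNA.373 is near the floor outside wt, and meu19 peaks at 10 h in clr4D and dcr1D at 506 and 1287 CPM.

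SPNCRNA.1626, opposite the MADS-box factor gene mbx2, was the other member lower at 24 h in all 3 strains of the rule. In wt it had 234 CPM at 0 h, 56.7 at 1 h, 111 at 2 h, 97.7 at 4 h, 86.3 at 10 h and 233 at 24 h. In clr4D its values ran 161, 63.9, 104, 85.0, 147 and 153 CPM, and in dcr1D 142, 49.0, 72.5, 64.6, 129 and 96.2 CPM. The dip at 1 h was present in these 3 strains, and by 24 h the ratio to 0 h was 0.99 in wt (95% interval 0.69 to 1.40), 0.95 in clr4D (0.62 to 1.44) and 0.68 in dcr1D (0.40 to 1.09). The intervals cover counting error only, and the rule used these values.

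A centromeric RNA was seen almost solely in wt. SPNCRNA.373, annotated as a centromeric long non-coding RNA, had 149 counts in wt at 0 h, 5 at 1 h, 20 at 2 h, 20 at 4 h, 34 at 10 h and 25 at 24 h. The 6 libraries labelled ago1D held 3 counts together, the clr4D libraries 1 and the dcr1D libraries 0. In CPM the wt values were 233, 17.7, 96.6, 55.8, 83.8 and 132. It reached 200 counts through wt alone, with 253 of its 257 counts there, so the choice fixes the direction of what follows, which is a description. Over 1 to 10 h, 79 wt counts stood against 2 in ago1D, a 58.4-fold difference (95% exact interval 15.6 to 490). In the same libraries SPNCRNA.373 was at least 36.3-fold higher in wt than in clr4D and at least 39.6-fold higher than in dcr1D, with the floor set at 3 counts over the 4 libraries. Its counts were too low for the filter of the tests.

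Members that were low at 24 h in wt alone were a mixed set. SPNCRNA.1467 overlaps cdc37 (an Hsp90 co-chaperone) on its strand and mdl1 on the other. Its wt values were 21.9, 7.09, 14.5, 16.7, 4.93 and 5.29 CPM from 0 h to 24 h, the last on 1 count. In dcr1D they were 18.9, 24.5, 18.1, 16.7, 25.0 and 107 CPM. The 24 h to 0 h ratio was 0.24 in wt (95% interval 0.0057 to 1.59) and 5.67 in dcr1D (3.14 to 9.93).

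SPNCRNA.1235 lies opposite gut2, a glycerol-3-phosphate dehydrogenase gene. From 0 h to 24 h its wt levels were 54.7, 17.7, 9.66, 8.37, 17.3 and 26.5 CPM. In clr4D they were 36.3, 17, 23.2, 24.3, 25.6 and 247 CPM, so that its gain there came after 10 h. SPNCRNA.969, opposite SPAC683.02c, had 14.1 CPM at 0 h and 5.29 at 24 h in wt, and 7.88 and 178 in clr4D. SPNCRNA.1531 had 35.9 and 21.2 CPM in wt and 9.37 and 111 in ago1D.

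SPNCRNA.798 overlaps ipp1, the inorganic pyrophosphatase gene, on the same strand. In wt it went from 18.7 to 10.6 CPM between 0 h and 24 h, a ratio of 0.56 (95% interval 0.061 to 2.54). In clr4D it went from 15.8 to 430 CPM, a ratio of 27.3 (14.1 to 58.9), and in dcr1D from 16.5 to 155, a ratio of 9.39 (5.54 to 15.8). In ago1D the ratio was 9.36 (3.73 to 26.5). Each of these libraries stands alone, and the 0 h and 24 h values entered the rule.

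SPNCRNA.1644, opposite the meiotic kinase gene spo4, was lower at 24 h in clr4D and dcr1D and not in wt. It had 32.8 CPM at 0 h and 37.0 at 24 h in wt, 37.8 and 24.7 in clr4D and 15.1 and 10.7 in dcr1D. At 1 h it had 1 count in wt, 0 in clr4D and 3 in dcr1D, and at 4 h 14, 10 and 7.

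At the upper edge of the choice stood SPNCRNA.1253, SPNCRNA.1601 and SPNCRNA.1033, with scores of 0.98, 1.02 and 1.03. Just outside were SPNCRNA.859, SPNCRNA.01 and SPNCRNA.1191, with 1.03, 1.05 and 1.07. SPNCRNA.859 had the same 5 and 4 wt counts at 0 h and 24 h as SPNCRNA.1033, and so an equal score. SPNCRNA.1033 had 7.81 and 21.2 CPM at these times in wt but 1.58 and 262 in clr4D, and 7.54 and 289 in dcr1D. SPNCRNA.1601 and SPNCRNA.1191 took their scores from dcr1D, SPNCRNA.01 from clr4D and the other 3 from wt. RNAs with large differences at 24 h in the deletion strains lie on both sides of the edge.

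Strains were compared, matched by labelled time, in 16 libraries at 1, 2, 4 and 10 h, which entered the minimum count of the rule but not the score. These include the ago1D libraries labelled 1 h and 2 h, whose profiles were closest to 2 h and 0 h. Of the 60 members 46 passed the low-count filter. The ids that the rule leaves out are in none of the member counts that follow. In ago1D 8 members were higher (2.22% of 4102 features were), SPNCRNA.1194, SPNCRNA.1206 and SPNCRNA.1023 with a limit given below, and 1 was lower (0.683%). In clr4D 0 were higher (0.536%) and 0 lower (0.0975%) by edgeR. At an unadjusted p below 0.05 there were 7, against 254 of 4102 features, and DESeq2 called 1. In dcr1D 0 were higher (1.22%) and 1 was lower (0.414%) by edgeR. At an unadjusted p below 0.05 there were 14, against 686 of 4102 features, and DESeq2 called 0 higher and 2 lower. Without the ago1D libraries labelled 1 h and 2 h, 3 members were higher and 1 lower in clr4D, and 5 higher and 5 lower in dcr1D. The same fit took the calls over all features from 26 to 79 in clr4D and from 67 to 359 in dcr1D. The median log2 difference of the tested members was 0.43 in ago1D, 0.22 in clr4D and 0.09 in dcr1D, against -0.01, -0.01 and 0.00 over all features tested. The other eligible RNAs had medians of 0.40, 0.31 and 0.01 and 5 higher and 1 lower calls in ago1D.

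The clearest of the ago1D members was SPNCRNA.1153, which overlaps no protein-coding gene. At 1, 2, 4 and 10 h it had 7.09, 24.2, 11.2 and 14.8 CPM in wt and 76.2, 53.4, 68.3 and 96.1 in ago1D. Those ranges do not overlap, and the difference was 2.15 on the log2 scale (SE 0.33, adjusted p = 0.00101 by edgeR). It passed in 10 of 10 other settings, with adjusted p between 0.000312 and 0.0232. At the same times its level was 19.3 to 44.3 CPM in clr4D and, for dcr1D, 14.7 to 47.1, differences of 1.20 and 1.17 that did not pass (adjusted p = 0.360 and 0.119). At 24 h it had 15.9 CPM in wt, 307 in ago1D, 593 in clr4D and 176 in dcr1D.

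SPNCRNA.1115, over SPCC1235.01 on the same strand, had 16.7 to 67.6 CPM in wt and 88.9 to 120 in ago1D, a difference of 1.40 (SE 0.25, adjusted p = 0.00349). SPNCRNA.1206 lies opposite nup211, which encodes a nuclear pore protein. It had 9 counts over the 4 wt libraries and 82 in ago1D, which is 6.17-fold (95% exact interval 3.10 to 14, adjusted p = 0.00414 by edgeR). SPNCRNA.1194 overlaps htb1 on its strand and hta1 on the other, the genes of histones H2B and H2A. It had 1 wt count against 57 in ago1D, a ratio of 38.6 (6.65 to 1551, adjusted p = 0.00507 by edgeR). Neither SPNCRNA.1206 nor SPNCRNA.1194 would have reached the minimum count of the rule without its ago1D libraries. The direction of these calls is therefore partly built in.

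SPNCRNA.609, over genes on both strands, had 9.86 to 33.8 CPM in wt and 51.9 to 68.3 in ago1D, a difference of 1.61 (SE 0.33, adjusted p = 0.0103). SPNCRNA.814, annotated as a snoRNA primary transcript opposite the citrate synthase gene cit1, had 29.0 to 59.1 CPM in wt and 98.6 to 264 in ago1D (log2 difference 1.83, SE 0.38, adjusted p = 0.0110). SPNCRNA.1023, over the respiratory chain gene qcr8 and named after its values were seen, had 7 wt counts against 64, or 6.19-fold (2.84 to 16, adjusted p = 0.0172 by edgeR). SPNCRNA.1023 passed the low-count filter only with its ago1D libraries, so the direction of its call is also partly built in. SPNCRNA.1597, opposite the lysine biosynthesis gene lys9, had 42.5 to 131 CPM in wt and 159 to 287 in ago1D (1.38, SE 0.33, adjusted p = 0.0275). The opposite genes cit1, lys9, nup211 and hta1 did not pass by edgeR. Their log2 differences in ago1D were 0.02 for cit1 (adjusted p = 0.987), -0.49 for lys9 (0.322), -0.08 for nup211 (0.884) and 0.31 for hta1 (0.574). Further opposite genes were rex3 for SPNCRNA.1023 and SPAC11D3.14c for SPNCRNA.609, and neither was called in ago1D. Genes on the same strand as these members were not in the compared lists.

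**Figure D5:**
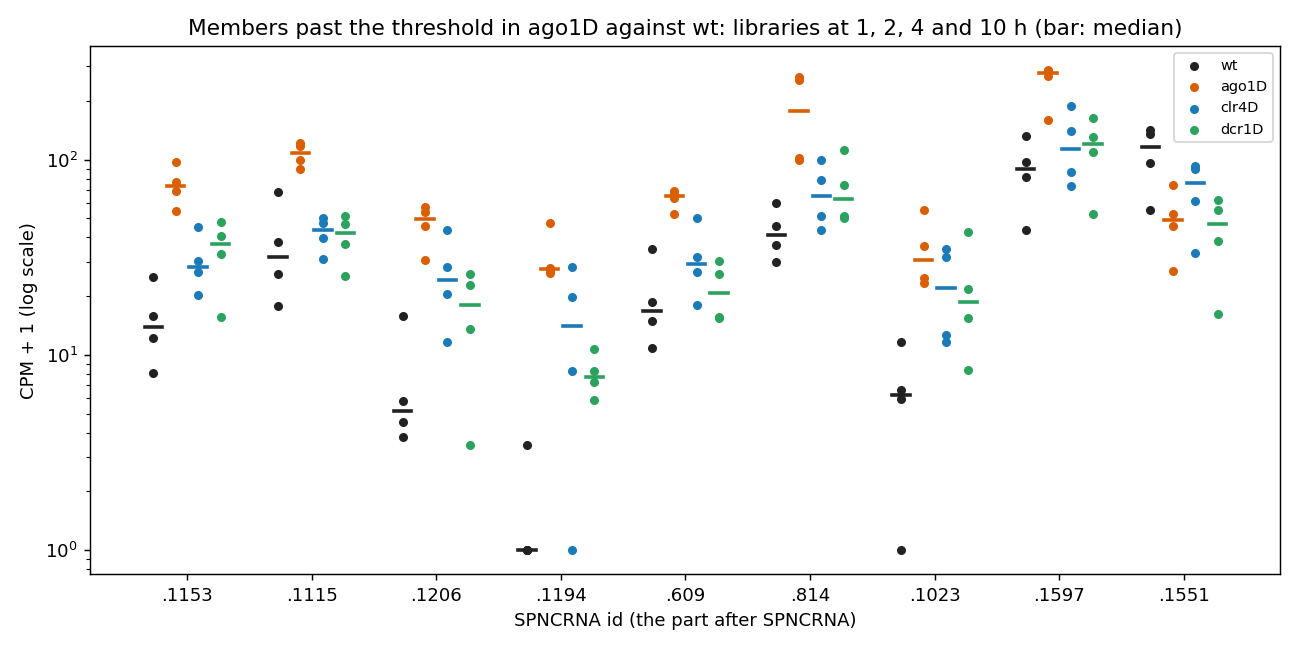
CPM + 1 on a log axis at 1, 2, 4 and 10 h for the 9 members that passed in ago1D against wt, 4 libraries per strain with bars at the median. For SPNCRNA.1153 the 4 ago1D points, at 53.4 to 96.1 CPM, lie above the wt points, while SPNCRNA.1551 lies lower in ago1D and dcr1D.

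Leaving out a time, and with it 4 of the 16 libraries, ended calls while the direction stayed. The log2 difference over all settings ran from 1.45 to 1.83 for SPNCRNA.609, 0.92 to 1.63 for SPNCRNA.1115 and 1.23 to 2.12 for SPNCRNA.814. Without the 4 h libraries SPNCRNA.609 (adjusted p = 0.111), SPNCRNA.1115 (0.0572), SPNCRNA.1194 (0.102), SPNCRNA.1206 (0.101), SPNCRNA.1023 (0.121) and SPNCRNA.1597 (0.0587) were lost by edgeR, which left 2 higher and 1 lower. Without 1 h SPNCRNA.609 (0.0586), SPNCRNA.1551 (0.0658), SPNCRNA.1597 (0.198) and SPNCRNA.814 (0.0508) were lost. Without 2 h it was SPNCRNA.1023 (0.0517) and SPNCRNA.1597 (0.0913), and without 10 h SPNCRNA.1551 (0.0555) and SPNCRNA.814 (0.0636). With the ago1D libraries labelled 1 h and 2 h left out, SPNCRNA.1597 went from 1.38 to 0.54 (adjusted p = 0.226) and SPNCRNA.1551 was lost (0.0576), and 7 higher and 1 lower calls were made. SPNCRNA.1115 was also lost with all 24 libraries (0.103) and SPNCRNA.1551 with no time term (0.299).

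SPNCRNA.1551, annotated as a possible alternative UTR and overlapping another non-coding RNA, was the member that passed in most contrasts. From 0 h to 24 h it had 120, 135, 140, 94.9, 54.2 and 238 CPM in wt. In dcr1D it had 53.3, 61.2, 54.3, 37.5, 15.3 and 112 CPM, in ago1D 93.7, 44.8, 51.9, 72.7, 26.0 and 59.7, and in clr4D 89.9, 91.6, 88.9, 60.7, 32.4 and 133. Its lowest level was at 10 h in each strain, and in wt, clr4D and dcr1D its highest was at 24 h. It was lower than wt by 1.39 on the log2 scale in dcr1D (SE 0.25, adjusted p = 0.00678 by edgeR) and at -1.23 in ago1D (SE 0.24, adjusted p = 0.00733). At each labelled time of the fit the wt level was the higher, although the ranges overlap. In clr4D the difference was -0.58 (adjusted p = 0.659). The dcr1D call was lost without 4 h (adjusted p = 0.0946), without 10 h (0.108) and with no time term (0.289).

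Times were compared in the 12 libraries of wt, clr4D and dcr1D at 1 to 10 h, with strain as a term, where 29 of the 60 members could be tested. Between 1 h and 4 h 2 members rose (2.86% of 3847 features) and 1 fell (4.08%). SPNCRNA.1644 rose by 2.40 on the log2 scale (SE 0.67, adjusted p = 0.0375 by edgeR). SPNCRNA.1696, the long non-coding RNA nam3, rose by 2.22 (SE 0.57, adjusted p = 0.0268), with 1, 1 and 4 counts at 1 h and 14, 15 and 10 at 4 h in wt, clr4D and dcr1D. SPNCRNA.1644 and nam3 would not have passed the low-count filter without the 4 h libraries. The direction of both rises is therefore partly built in. SPNCRNA.1551 fell by 0.94 (SE 0.22, adjusted p = 0.0178). With scaling by library totals, which lifts the median of all features by 0.35, 5 members were higher and 0 lower. DESeq2 and the fit with ago1D called 0 of them, and so did the fit without clr4D. Without wt 0 were higher and 1 lower, and without dcr1D 1 higher and 0 lower. By comparison, 15 of the 44 other eligible RNAs tested were higher and 1 lower.

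From 4 h to 10 h 0 members rose (3.51% of features did) and 4 fell (1.56%) by edgeR. At an unadjusted p below 0.05 there were 5 of 29, against 693 of 3847 features, and DESeq2 called 1 higher and 2 lower. Besides SPNCRNA.504 the members that fell by edgeR were SPNCRNA.1551, SPNCRNA.1432 and SPNCRNA.1610. SPNCRNA.1551 fell by 1.27 (SE 0.25, adjusted p = 0.00711 by edgeR). SPNCRNA.1432, over the histone H4 gene hhf2 on the same strand, had 41.9, 41.3 and 25.0 CPM at 4 h and 19.7, 10.2 and 9.73 at 10 h in wt, clr4D and dcr1D, a fall of 1.79 (SE 0.38, adjusted p = 0.0105, log2 scale). SPNCRNA.1610, opposite rav1, had 33.5, 29.1 and 10.4 CPM at 4 h and 14.8, 3.41 and 4.17 at 10 h, and fell by 2.04 (SE 0.50, adjusted p = 0.0231). Both were lower at 10 h in 3 of 3 strains, with groups that overlap for SPNCRNA.1610. At 24 h SPNCRNA.1432 stood at 143 CPM in wt and SPNCRNA.1610 at 101, above their 0 h levels of 35.9 and 56.2. Without clr4D 0 features of any kind passed between 4 h and 10 h, and without dcr1D 19 features and 0 members did, so those fits say little of single members. In them the log2 difference was -1.44 and -1.81 for SPNCRNA.1432, -1.41 and -2.16 for SPNCRNA.1610 and -1.21 and -1.13 for SPNCRNA.1551. For SPNCRNA.504 it was -1.09 without clr4D and -0.54 without dcr1D. SPNCRNA.1432 and SPNCRNA.1610 were also lost with DESeq2, and SPNCRNA.1610 with ago1D added. Of the 44 other eligible RNAs, 3 were higher and 0 lower.

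A set of members peaked at 10 h in clr4D and dcr1D. SPNCRNA.29 is meu19 and SPNCRNA.07 is meu3, both named for expression raised in meiosis. meu19 had 0 to 4 counts in each wt library and 0 to 8 in each ago1D library. In clr4D it had 2, 2, 1, 4, 297 and 8 counts from 0 h to 24 h, and in dcr1D 3, 2, 1, 8, 926 and 10. In CPM the 10 h values were 506 and 1287, against 4.93 in wt and 4.00 in ago1D. meu19 was 52.1-fold higher at 10 h than at 4 h in clr4D (95% exact interval 20.1 to 193) and 77.2-fold in dcr1D (39.0 to 179). By 24 h it was down to 39.5 and 53.4 CPM, still above its 0 h level in both strains.

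meu3 had 0, 1, 0, 6, 199 and 0 counts in clr4D and 2, 0, 4, 3, 659 and 5 in dcr1D, with 0 to 2 per wt library and 0 to 4 per ago1D library. Its 10 h to 4 h ratio was 23.3 in clr4D (10.5 to 64.2) and 147 in dcr1D (49.9 to 712). SPNCRNA.576, opposite the glutaminyl-tRNA synthetase gene qrs1, was named after its values were seen. It followed the same course, with 124 counts in clr4D and 357 in dcr1D at 10 h, against 0 in wt and 5 in ago1D at that time and 0 to 3 at the other times in clr4D and dcr1D. The score compares 24 h with 0 h, so a peak at 10 h does not enter the score. It does enter the minimum count of the rule. meu19, meu3 and SPNCRNA.576 reached that minimum only through the 10 h libraries of clr4D and dcr1D. The direction of their peaks and of the 10 h to 4 h ratios is therefore built in, and these values are a description. The scores of these RNAs came from wt, where they had 0 or 1 counts at both times. Between 0 h and 24 h the log2(CPM + 5) difference in clr4D and dcr1D was 2.45 and 3.19 for meu19. It was 0.0 and 2.42 for meu3 and 0.60 and 1.05 for SPNCRNA.576.

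In the filtered fits none of the 3 was tested, since so few libraries hold them. For the step from 1 to 4 h to 10 h beyond that of wt, 0 tested members were higher in clr4D (0.234% of features) and 0 lower (0%). In dcr1D 0 were higher (0.962%) and 0 lower (0%). These are edgeR counts. At an unadjusted p below 0.05 there were 3 and 1 (183 and 334 of 3847 features), and DESeq2 called 1 and 2. The DESeq2 calls were meu19 in both strains and SPNCRNA.576 in dcr1D. meu19 has 297 and 926 of its 1290 counts in the 10 h libraries of clr4D and dcr1D, and like meu3 and SPNCRNA.576 it reached 200 counts only through them, so these calls are no support for the peak.

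Genes of mating cells move at these times. The summed level of 5 genes that mark M cells (mfm1, mfm2 and mfm3 for M-factor, the transporter gene mam1 and the P-factor receptor gene mam2) was 42.2 to 116 CPM in wt libraries and 51.9 to 126 in ago1D. In clr4D it was 72.5 to 243 CPM up to 2 h, then 1146, 4275 and 3958 at 4, 10 and 24 h. The dcr1D sums were 62.7 to 217 CPM up to 2 h, then 1271, 1656 and 3089. In clr4D against wt 4 of the 5 passed as higher by edgeR, as in dcr1D. The P cell genes map2 and map3 together had 9.66 to 159 CPM in wt, against 7.73 to 1038 for clr4D and 12.2 to 546 for dcr1D. The strains are all labelled h+. The part of mating or meiotic cells in the peaks of meu19, meu3 and SPNCRNA.576 was not tested.

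SPNCRNA.1227, also named after its values were seen, lies opposite ste6, a gene of Ras signalling in mating. At 1, 2, 4 and 10 h it had 17.7, 14.5, 25.1 and 27.1 CPM in wt and 0, 10.9, 6.25 and 8.34 in dcr1D, where the difference of -1.95 (SE 0.49) just missed the threshold (adjusted p = 0.0574 by edgeR). ste6 itself was higher by 2.1 in dcr1D (adjusted p = 0.00461) and by 1.97 in clr4D (0.0119). In clr4D SPNCRNA.1227 differed from wt by -0.24 (adjusted p = 0.960).

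The other named members had mixed courses. SPNCRNA.111, rse1, is annotated as a cis-acting repressor of ste11, the gene for a master regulator of mating and meiosis. In wt it had 145, 113, 188, 162, 133 and 180 CPM from 0 h to 24 h, while dcr1D had 97.6, 88.2, 221, 248, 329 and 251. The dcr1D difference over 1 to 10 h was 0.46 (SE 0.21) and did not pass (adjusted p = 0.276 by edgeR). SPNCRNA.58, prl58, a poly(A)-bearing RNA, had 0 to 22.3 CPM at those times in wt and 14.5 to 59.8 in dcr1D, a difference of 1.45 (SE 0.39, adjusted p = 0.0702). prl58 would not have reached the minimum count of the rule without its dcr1D libraries, so that direction is partly built in. nam3 was at 20.3 CPM at 0 h in wt and 122 at 24 h, and at 12.6 and 24.7 in clr4D.

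Genes opposite the members and RNA elimination genes gave few calls. Of 51 protein-coding genes opposite members, 39 could be tested between strains, and 1 was higher in each deletion strain (ubx3 in ago1D, ste6 in clr4D and dcr1D) and 0 lower. Between 1 h and 4 h 2 rose (ste6 and srm1) and 2 fell (cit1 and hta1), and between 4 h and 10 h 1 rose and 0 fell. Of 22 RNA elimination genes (exosome subunits, the nuclear RNA decay factors mmi1 and red1, the exonuclease genes exo2 and dhp1 and others) 17 could be tested. None of the 17 passed between strains, and 2 in dcr1D had an unadjusted p below 0.05, as had 686 of 4102 features. The exosome nuclease gene rrp6 rose between 1 h and 4 h by 1.25 (SE 0.33, adjusted p = 0.0282 by edgeR), and 0 passed between 4 h and 10 h.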

How the data were processed

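Per the submitters' processing notes, adapters were trimmed with cutadapt, reads aligned with Bowtie2 2.1.0 to ASM294v2 and counted with HTSeq 0.6.1; no source used here gives the strand setting. The authors deposited unnormalized counts for each annotated transcript in each library, and the 5 summary lines entered neither totals nor tests. Of 397 features lying wholly within others on the other strand (margin 50 bases) 379 had a count, against 1 of 26 on the same strand, so the strands were counted apart.

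Names and overlaps came from RefSeq's ASM294v3 annotation, which matched 6714 of 6878 ids, and since the build differs no coordinates or sequences are given. Tests used edgeR 4.0.16 (quasi-likelihood, TMM, filterByExpr with minimum count 10) in R 4.3.3 on all features, with Benjamini-Hochberg adjustment and a threshold of 0.05. DESeq2 1.42.0 was an alternative, and limma 3.58.1 was loaded with edgeR. Fitted log2 values are on TMM-scaled sizes and CPM on library totals. Ratios of counts carry 95% exact conditional intervals, which cover counting error only. The scripts were tested on simulated data. Whether libraries came from separate cultures is not stated, and the p-values then reflect only how these libraries vary, which may be technical. In the strain tests times stand as the repeats, and in the time tests strains do.

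The members and lists were chosen with earlier results of these data known. Members are named when among the 10 lowest scores, the 5 highest counts, the calls (up to 6 per direction), the annotated names, the ids lower in all 3 strains or the edge of the choice; others are marked as named after their values were seen. The members with most counts were srp7, SPNCRNA.504, rse1, SPNCRNA.1597 and SPNCRNA.1626. The P cell genes matPc and matPi were not matched.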

Additional observations from a re-analysis of the deposited data

Results flagged for a closer look

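Within a strain, a library was marked when its log2(CPM + 5) stood far from the other 5 of that strain, by Dixon's criterion. This was done for 120 strain and RNA pairs, and 18 were marked where about 6 would be by chance at 1 in 20. The 6 libraries of a strain are different times, not repeats, so a mark is a time that stands apart.

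Most marks were highest values at 24 h. In clr4D these were SPNCRNA.1235 (7.98), SPNCRNA.798 (8.76), SPNCRNA.1153 (9.22), SPNCRNA.609 (8.68), SPNCRNA.1023 (7.59), SPNCRNA.814 (8.71) and SPNCRNA.1253 (7.21). In dcr1D they were SPNCRNA.1467 (6.81), SPNCRNA.609 (7.54), SPNCRNA.1194 (6.22) and SPNCRNA.1033 (8.20). In ago1D they were SPNCRNA.1235 (7.38) and SPNCRNA.373 (3.76, on 1 count). The clr4D library at 24 h held 202385 gene counts and the summed level of the 59 members other than srp7 was 7604 CPM there, against 3804 in wt at 24 h. The part of that library in these values was not tested.

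At 10 h meu3 (SPNCRNA.07) was marked as highest in clr4D (8.43) and in dcr1D (9.85), and SPNCRNA.1610 as lowest in clr4D (3.07). SPNCRNA.1644 was lowest in wt at 1 h (3.10). SPNCRNA.373 was marked in clr4D at 0 h (2.72), which is its single count in that strain.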

How the results depend on the processing

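Counts of called members changed with the fit, and no named call changed direction. The scale does change the sign of the members' median difference between 24 h and 0 h in wt, from 0.48 on library totals to -0.24 with TMM sizes. In ago1D against wt 9 were called, and 3 to 7 with a time left out. In clr4D the count of 0 became 1 with DESeq2 or all 24 libraries, 3 without the filter, 4 without the ago1D libraries labelled 1 h and 2 h, and 0 to 1 with a time left out. In dcr1D the 1 became 2 with DESeq2 or all 24 libraries, 6 without the filter, 0 without a time term, 10 without those ago1D libraries (5 higher, 5 lower) and 0 to 2 with a time left out. For 4 h against 1 h the 3 became 5 with library totals, 0 with DESeq2 or with ago1D, and 0 to 1 with a strain left out. For 10 h against 4 h the 4 became 9 without the filter, 2 with ago1D and 0 to 6 with a strain left out. Beyond wt at 10 h, the 0 became 1 in clr4D with DESeq2 or without the filter, and 2 and 1 in dcr1D. The cause was not tested. Over all features, calls ranged from 45 to 181 in ago1D (119 in the reported fit), 6 to 79 in clr4D (26), 11 to 359 in dcr1D (67), 44 to 454 for 4 h against 1 h (267), 0 to 457 for 10 h against 4 h (195), and 0 to 22 (9) and 14 to 67 (37) for the steps beyond wt in clr4D and dcr1D. Library totals moved the median of all features by 0.23 in ago1D and 0.34 for 10 h against 4 h.

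Of the 60 members, 58 were chosen with a pseudocount of 1, 55 with TMM sizes and 50 by the mean over strains. With 400 counts or more 48 ids were eligible and 17 were shared. If left-out ids take places, 54 remain, an alternative added after the data were seen. The strain tests hold time as a block and the time tests hold strain, and without the time term 8, 0 and 0 members were called in ago1D, clr4D and dcr1D. Depth limits most members: 1 count at 24 h in wt is 5.29 CPM.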
